A study of Mus musculus with 2 samples.

Results

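Caspases are cysteine proteases that cut their substrates after aspartate, and the genes described here are 4 of them (Casp2, Casp6, Casp8 and Casp9) with 3 genes that control them (Apaf1, Xiap and Cflar). The 7 genes were taken by name from 43346 gene entries, together with their 52 annotated transcripts, and all 7 were found in both tables of both libraries. The data are 2 polyadenylated RNA libraries, replicates 1 and 2, of 1 group, in which G1E-ER4 cells were kept for 24 h with 17beta-estradiol at 10 nM. G1E-ER4 is a single mouse erythroid line whose own Gata1 is not functional and in which a fusion of GATA1 with an estrogen receptor domain is switched on by estradiol. The labels call the libraries biological replicates but trace both to 1 biosample, so their differences, and every p-value below, may reflect technical spread alone. No untreated cells were analysed here.

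Initiator caspases are inactive until an adaptor brings them together. Cytochrome c released from mitochondria makes Apaf1 assemble into the apoptosome, which activates caspase-9; death receptors gather caspase-8 with Cflar (c-FLIP), a relative of caspase-8 without protease activity; and the PIDDosome activates caspase-2. Caspase-6 is an executioner that cuts nuclear lamins, and Xiap is an inhibitor of apoptosis protein that binds caspase-9 and executioner caspases. In human erythroblasts, caspases are switched on for a time during terminal maturation and can cut GATA1 unless the chaperone HSP70 protects it.

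Replicate 1 was the deeper library, with 70451042 estimated counts over all genes, against 13841487 for replicate 2 (5.09-fold). Levels are given in TPM (transcript abundance corrected for length and scaled to the same sum in each library). Gata1 stood at 3038 TPM in replicate 1 and 2940 TPM in replicate 2, and its entry cannot tell the fusion from the endogenous gene. Of 7 erythroid marker genes 6 passed 1 TPM in both libraries, and the list summed to 195129 TPM in replicate 1 and 83715 TPM in replicate 2, led by the globin genes Hbb-bs (84105 ± 54833 TPM, SD, n = 2) and Hba-a1 (52936 ± 24774 TPM). No member of the myeloid (5 genes), lymphoid (5) or stromal (3) lists reached 1 TPM in both libraries, and the sums were at most 0.65 TPM in replicate 1 and 1.11 TPM in replicate 2. The highest of these lists were Cd68 (0.745 ± 0.247 TPM) and Cd14 (0.095 ± 0.134 TPM), Cd79a (0.415 ± 0.276 TPM) and Ptprc (0.030 ± 0.042 TPM), and Col1a1 (0.105 ± 0.120 TPM) and Kdr (0.045 ± 0.064 TPM). Of 5 megakaryocyte genes Gp1ba (23.0 ± 8.44 TPM) and Itga2b (3.30 ± 0.035 TPM) passed, while Pf4 and Ppbp had 0 counts in both libraries.

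The apoptosome genes and their inhibitor were the highest of the 7, and Casp8 was close to undetected. In bulk RNA, fewer cells that use a gene and less RNA per cell cannot be told apart. Xiap averaged 47.3 ± 15.1 TPM (SD, n = 2, also for the values that follow), Apaf1 33.3 ± 3.46, Casp9 24.8 ± 5.14, Casp6 6.74 ± 9.05, Cflar 4.12 ± 1.18, Casp2 2.68 ± 1.69 and Casp8 0.010 ± 0.014 TPM. Of the 7 genes 5 reached 1 TPM in both libraries (all but Casp6 and Casp8), where 17.2% of all gene entries did. Their median was 24.8 TPM, beside 18.6 TPM over all genes that passed. In this order of levels, Apaf1 and Casp9, Casp9 and Casp6, and Casp2 and Casp8 lay further apart than the larger of their SDs. Xiap and Apaf1, Casp6 and Cflar, and Cflar and Casp2 did not.

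**Figure D1:**
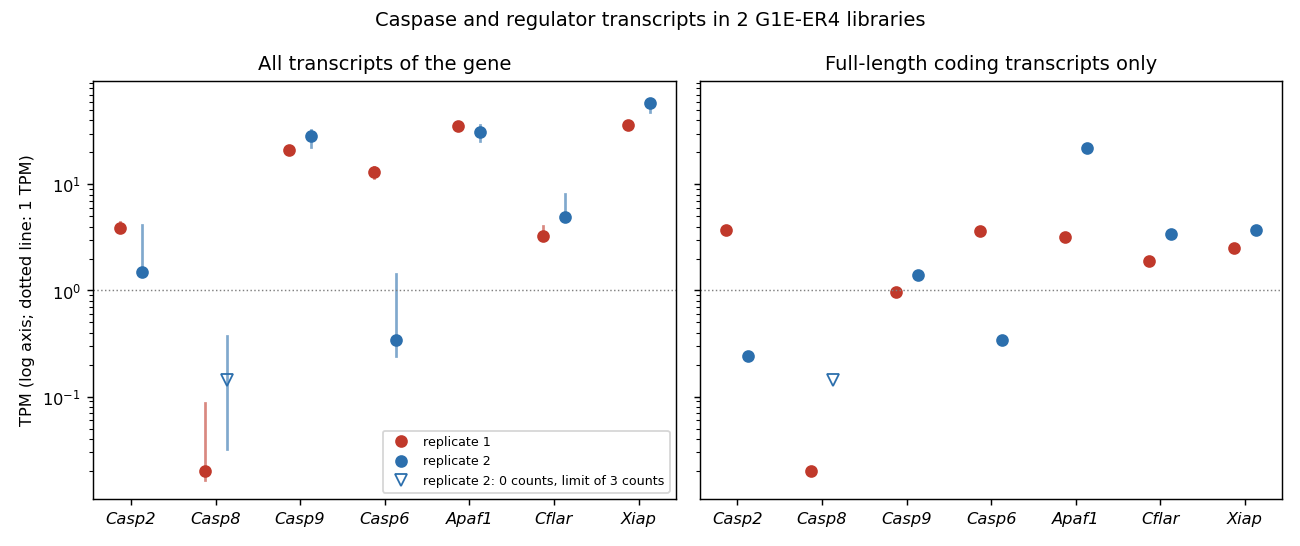
TPM of each gene in the 2 libraries on a log axis, over all transcripts of the gene (left) and over full-length coding transcripts alone (right); bars are the intervals deposited with the values and the open triangle stands for 0 counts. Over all transcripts Casp9, Apaf1 and Xiap lie between 21.2 and 58.0 TPM, while full-length coding transcripts lie at 3.72 TPM or below except Apaf1 in replicate 2, at 22.1 TPM.

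Much of the TPM of these genes was assigned to transcripts that do not hold the whole coding sequence. Transcripts were sorted into full-length coding (a complete coding sequence of at least 95% of the gene's longest), shorter coding, incomplete coding (the annotation marks an end of the coding sequence as not found), nonsense-mediated decay and noncoding. This sorting was chosen after the values were seen. Counting full-length coding transcripts alone, Apaf1 averaged 12.7 ± 13.4, Xiap 3.10 ± 0.82, Cflar 2.64 ± 1.07, Casp6 2.00 ± 2.34, Casp2 1.98 ± 2.46 and Casp9 1.19 ± 0.304 TPM. By that measure 3 of the 7 genes (Apaf1, Xiap and Cflar) had at least 1 TPM in both libraries. Over the 5 genes with at least 1 TPM, the median full-length share was 8.95% in replicate 1 and 16.2% in replicate 2, beside 51.3% and 40.3% over 5406 protein-coding genes at that level with more than 1 transcript. By counts, the median full-length share of the 5 genes was 58.2% in replicate 1 and 55.3% in replicate 2, beside 75.3% and 65.7% over the same protein-coding genes. A share of TPM weighs short transcripts more than a share of counts does, and both are model estimates for overlapping transcripts.

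Apaf1, the scaffold of the apoptosome (ENSMUSG00000019979.8, mm10 chromosome 10, 90989311 to 91082770, minus strand), had close deposited TPM in both libraries but different leading transcripts. Its scaled counts lay further apart, with 59.0 CPM (counts scaled to library size) in replicate 1 and 115 CPM in replicate 2. With globin and mitochondrial genes left out of the TPM, its mean was 40.2 in place of 33.3 TPM. It had 4775 counts and 35.8 TPM in replicate 1 (deposited interval 34.2 to 37.0; the level of these intervals is not given in the files) and 1386 counts and 30.9 TPM in replicate 2 (25.8 to 36.1). In replicate 1 the leading transcript was Apaf1-205, a model of 5 exons and 774 coding bases, with 30.5 of the 35.8 TPM (85.3%) and 63.6% of counts (95% Wilson interval 62.2 to 65.0%). It codes for the start of the protein, which holds the domain that binds caspase-9, and lacks the WD repeats that sense cytochrome c. In replicate 2 the leading transcript was Apaf1-208, with 27 exons and 3714 coding bases, at 22.1 TPM (71.7%) and 89.7% of counts (88.0 to 91.2%). Apaf1-205 had 8.75 TPM there, with a wide deposited interval of 3.31 to 16.9 TPM. The Wilson intervals take the assigned counts as observed and leave out the error of dividing them among overlapping models.

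Of the 3 full-length models of Apaf1, Apaf1-201 had 0 counts in both libraries, and Apaf1-202 and Apaf1-208 exchanged places between them. Apaf1-202 had 1385.47 counts and 3.20 TPM in replicate 1 (deposited interval 2.67 to 3.33) and 0 counts in replicate 2 (up to 0.269 TPM). Apaf1-208 had 0 counts in replicate 1 (up to 0.445 TPM) and 1242.66 counts and 22.1 TPM in replicate 2 (17.8 to 22.5). Within the stretch they share, the models differ by 33 coding bases at the end of exon 3, which Apaf1-202 holds and Apaf1-208 lacks. They also differ in where the first exon begins and the last exon ends, so their counts do not rest on the 33 bases alone. The stretch is shown because it separates the forms, with the 33 bases (chr10:91079447-91079479, minus strand) in capitals in Apaf1-202 and 20 bases on each side. This and all further sequences are GENCODE M21 transcript sequences on GRCm38 (mm10):
Apaf1-202: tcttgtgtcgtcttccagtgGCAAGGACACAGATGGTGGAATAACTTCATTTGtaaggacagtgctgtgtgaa
Apaf1-208: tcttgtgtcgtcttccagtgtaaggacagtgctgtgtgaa

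The short transcript has another start of exon 2, with 43 more noncoding bases, and another end. Apaf1-205 runs past the end of exon 5 into what the full-length models remove as an intron, and 64 coding bases (chr10:91067017-91067080, minus strand) come from there before its stop codon. They are shown in capitals after the last 20 bases of the shared exon and before the stop codon:
Apaf1-205: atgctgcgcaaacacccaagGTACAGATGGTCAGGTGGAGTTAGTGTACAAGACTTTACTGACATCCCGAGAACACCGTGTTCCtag
Apaf1-207, with the same 774 coding bases and a longer end, took 5.54% of TPM in replicate 1 and 0% in replicate 2. Whether counts on the shared intron stretch came from spliced or from unspliced RNA was not tested.

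Casp9 (ENSMUSG00000028914.9, chromosome 4, 141793612 to 141815976), the initiator that the apoptosome activates, had 1482 counts and 21.2 TPM in replicate 1 (deposited interval 19.9 to 22.6) and 244 counts and 28.5 TPM in replicate 2 (22.3 to 32.6). Casp9-206 led in both libraries, with 13.1 TPM (61.9%) in replicate 1 and 21.7 TPM (76.3%) in replicate 2. It is a model of 4 exons and 645 coding bases whose end is marked as not found. The full-length Casp9-201 had 0.970 TPM in replicate 1 (interval 0.773 to 1.14) and 1.40 TPM in replicate 2 (0.842 to 1.81), and these intervals overlap. Its share of counts was 16.9% in replicate 1 (95% Wilson interval 15.0 to 18.9%) and 24.2% (19.2 to 29.9%) in replicate 2.

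Casp9-202 was lower in count share in replicate 2. It took 43.4% of the gene's counts in replicate 1 (40.9 to 45.9%) and 6.11% in replicate 2 (3.76 to 9.89%), at 6.92 TPM in replicate 1 and 0.980 TPM in replicate 2. Casp9-202 lacks exon 8, whose 110 bases are no multiple of the codon length, and its coding sequence of 1215 bases ends in another frame than the 1362 bases of Casp9-201. A noncoding model, Casp9-205, had 0 TPM in replicate 1, against 4.36 TPM in replicate 2, from 9.82 counts. The stretches below are shown because they tell the 3 coding models apart, with exon 8 (chr4:141812207-141812316, plus strand) and the 3 bases at the start of exon 2 that Casp9-206 lacks (chr4:141796435-141796437, plus strand) in capitals, each with 20 bases on both sides:
Casp9-201 exon 8: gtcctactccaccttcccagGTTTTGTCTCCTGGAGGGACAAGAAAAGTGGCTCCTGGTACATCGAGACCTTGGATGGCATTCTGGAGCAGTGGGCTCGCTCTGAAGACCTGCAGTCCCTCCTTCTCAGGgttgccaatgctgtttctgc
Casp9-201 exon 2: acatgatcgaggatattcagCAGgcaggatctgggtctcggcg
Apart from those 3 bases, Casp9-206 lies inside the exons of Casp9-201. The end of Casp9 overlaps Cela2a and Ctrc on the other strand, and both had 0 counts in both libraries.

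Casp2 (ENSMUSG00000029863.9, chromosome 6, 42264985 to 42282508), the initiator of the PIDDosome, had 892 counts and 3.87 TPM in replicate 1 and 36 counts and 1.48 TPM in replicate 2. In replicate 2 its TPM lay below the deposited interval (1.66 to 4.12), which belongs to the posterior mean of 2.80 TPM. The full-length Casp2-201 took 96.1% of TPM in replicate 1, against 16.0% in replicate 2, where Casp2-209 led with 55.5% and the intron-retaining Casp2-204 took 28.5%. The counts behind the replicate 2 shares were 8.99, 11.98 and 15.03, and the deposited intervals of Casp2-201 (0.047 to 0.527 TPM) and Casp2-209 (0.108 to 1.39 TPM) overlap there. In replicate 1 they did not, with 3.43 to 3.92 TPM for Casp2-201 and at most 0.115 TPM for Casp2-209.

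The annotation classes Casp2-209 as a target of nonsense-mediated decay. It includes a cassette exon of 61 bases, and its coding sequence ends after 1029 bases instead of 1356. In human cells, inclusion of such an exon is known to give the short form of caspase-2. The exon (chr6:42276870-42276930, plus strand) is shown in capitals because Casp2-201 lacks it. The models also differ at both ends, so their counts do not rest on the exon alone:
Casp2-209: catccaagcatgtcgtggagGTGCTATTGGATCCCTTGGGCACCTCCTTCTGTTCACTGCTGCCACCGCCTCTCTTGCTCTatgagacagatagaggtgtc

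Casp8 (ENSMUSG00000026029.10, chromosome 1, 58795374 to 58847503), the initiator of the death receptor route, had 3 counts and 0.020 TPM in replicate 1, where the exact 95% counting interval is 0.619 to 8.77 counts. It had 0 counts in replicate 2, which allows up to 0.144 TPM at 3 counts, and the deposited interval, around a posterior mean of 0.190 TPM, reached 0.374 TPM. All 3 counts were assigned to Casp8-201. Its neighbour Cflar (ENSMUSG00000026031.11, chromosome 1, 58711508 to 58758884) had 666 counts and 3.28 TPM in replicate 1 and 155 counts and 4.95 TPM in replicate 2. The 2 deposited intervals of Cflar, 3.14 to 4.01 and 5.07 to 8.04 TPM, do not overlap, and belong to posterior means of 3.57 and 6.51 TPM.

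Cflar was the gene whose leading transcript was full-length coding in both libraries. Cflar-201 stood at 1.14 TPM (34.8%) in replicate 1 and 3.35 TPM (67.7%) in replicate 2. By posterior means Cflar-201 held 31.5% in replicate 1 and 43.1% in replicate 2. Cflar-205, with the same coding length of 1443 bases and other ends, held 48.5% of the counts in replicate 1 (95% Wilson interval 44.7 to 52.3%), against 1.78% (0.660 to 5.54%) in replicate 2. The short coding form Cflar-204, with 645 coding bases, had 0.020 TPM in replicate 1 and 0 in replicate 2. Noncoding models took 42.1% and 31.5% of the gene's TPM. Of these Cflar-207 had 0.83 and 0.80 TPM, Cflar-210 0.27 and 0 TPM, and the single-exon Cflar-213, which retains an intron, 0.13 and 0.76 TPM in replicates 1 and 2.

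Casp6 (ENSMUSG00000027997.8, chromosome 3, 129901425 to 129914103), the executioner of the group, had 542 counts and 13.1 TPM in replicate 1 (deposited interval 11.5 to 14.6) and 5 counts and 0.34 TPM in replicate 2 (0.240 to 1.44). In replicate 1 the coding Casp6-201 had 3.65 TPM and the noncoding Casp6-202 9.40 TPM, 27.8% and 71.6% of the gene. By counts the order was the opposite, with 60.5% for Casp6-201 (95% Wilson interval 56.3 to 64.5%) and 38.9% for Casp6-202 (34.9 to 43.1%), whose model is 477 bases long. All 5 counts of replicate 2 were assigned to Casp6-201, and the Wilson interval for Casp6-202 there reached 43.4%, so a share like that of replicate 1 was within it. The last exon of Casp6-202 (chr3:129908586-129908744, plus strand, 159 bases in capitals after 20 bases of the exon before it) is shown because it is the part that Casp6-201 lacks:
Casp6-202: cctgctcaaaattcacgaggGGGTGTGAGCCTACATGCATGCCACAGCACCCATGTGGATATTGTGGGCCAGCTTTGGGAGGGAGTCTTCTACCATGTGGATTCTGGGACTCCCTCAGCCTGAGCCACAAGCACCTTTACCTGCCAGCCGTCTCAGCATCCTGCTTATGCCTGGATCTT

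Xiap (ENSMUSG00000025860.10, chromosome X, 42059679 to 42109656) had 1931 counts and 36.6 TPM in replicate 1 (deposited interval 33.9 to 38.8) and 487 counts and 58.0 TPM in replicate 2 (48.5 to 62.3). Xiap-205, a model of 487 bases with 158 coding bases and an end marked as not found, took 92.1% of TPM in replicate 1 and 92.8% in replicate 2. Its share of counts was 40.3% in replicate 1 (95% Wilson interval 38.2 to 42.5%), against 44.1% (39.8 to 48.6%) in replicate 2. The full-length Xiap-204 had 1.62 TPM in replicate 1, against 3.59 TPM in replicate 2, and Xiap-203 0.89 and 0.090 TPM. Xiap-205 lies inside the exons of Xiap-203, which has 1488 coding bases, except that its last exon begins 5 bases later, ahead of the start codon. Xiap-203 and Xiap-204 open with the same coding bases as Xiap-205, so those bases do not tell the models apart. They are shown (chrX:42094399-42094556, plus strand, start codon in capitals) because Xiap-205 led the gene by TPM:
Xiap-205: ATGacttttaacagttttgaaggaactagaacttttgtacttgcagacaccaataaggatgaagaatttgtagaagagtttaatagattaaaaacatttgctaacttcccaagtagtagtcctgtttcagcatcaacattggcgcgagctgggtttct

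**Figure D2:**
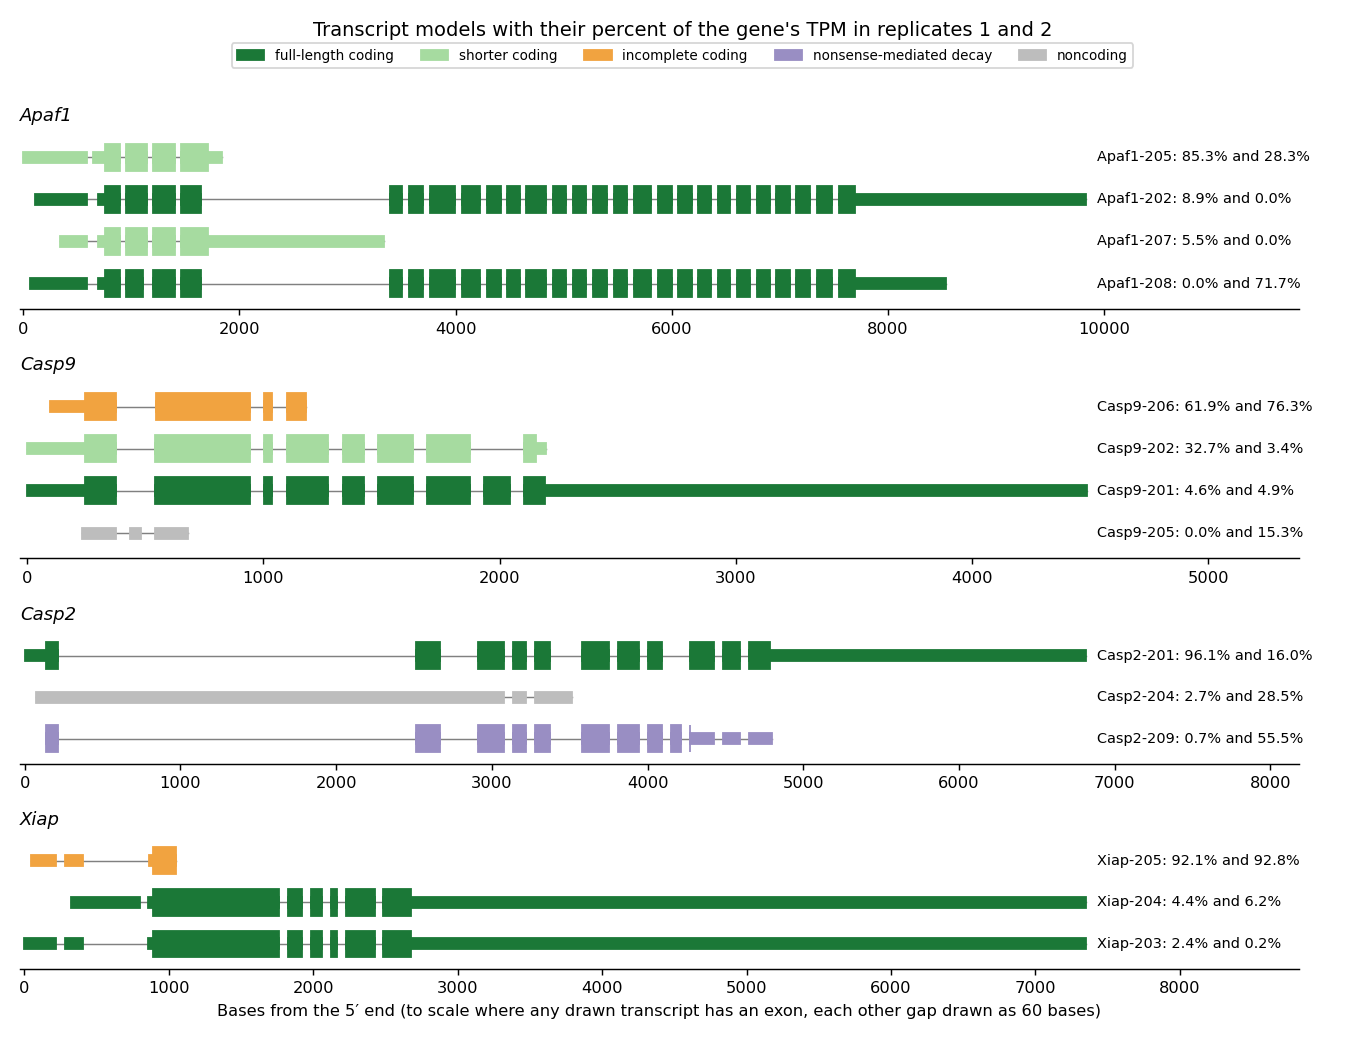
Transcript models of Apaf1, Casp9, Casp2 and Xiap, drawn 5′ to 3′ with coding parts thick, colours for the transcript class and the percent of the gene's TPM in replicates 1 and 2 at the right. The x axis counts bases, to scale where any drawn transcript has an exon. Xiap-205 and Casp9-206 hold only the start of the gene and carry 92.1% and 61.9% of TPM in replicate 1.

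The transcript with the most TPM was the same in both libraries for Casp9, Xiap and Cflar, 3 of the 5 genes with at least 1 TPM, and differed for Casp2 and Apaf1. Over 5519 genes at that level with more than 1 transcript, 65.4% had the same leading transcript. For Casp9 and Xiap, 2 of the 5, the leading transcript was not full-length coding in either library, where 40.4% of 5406 protein-coding genes were of that kind. Both of these shares are near the background. Ranked by counts in place of TPM, 0 of the 5 genes had 1 leading transcript in common between the libraries, where 66.7% of the 5519 genes did. Of the 52 transcripts, 20 took at least 5% of their gene's TPM in a library, and 17 are full-length coding models.

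**Figure D3:**
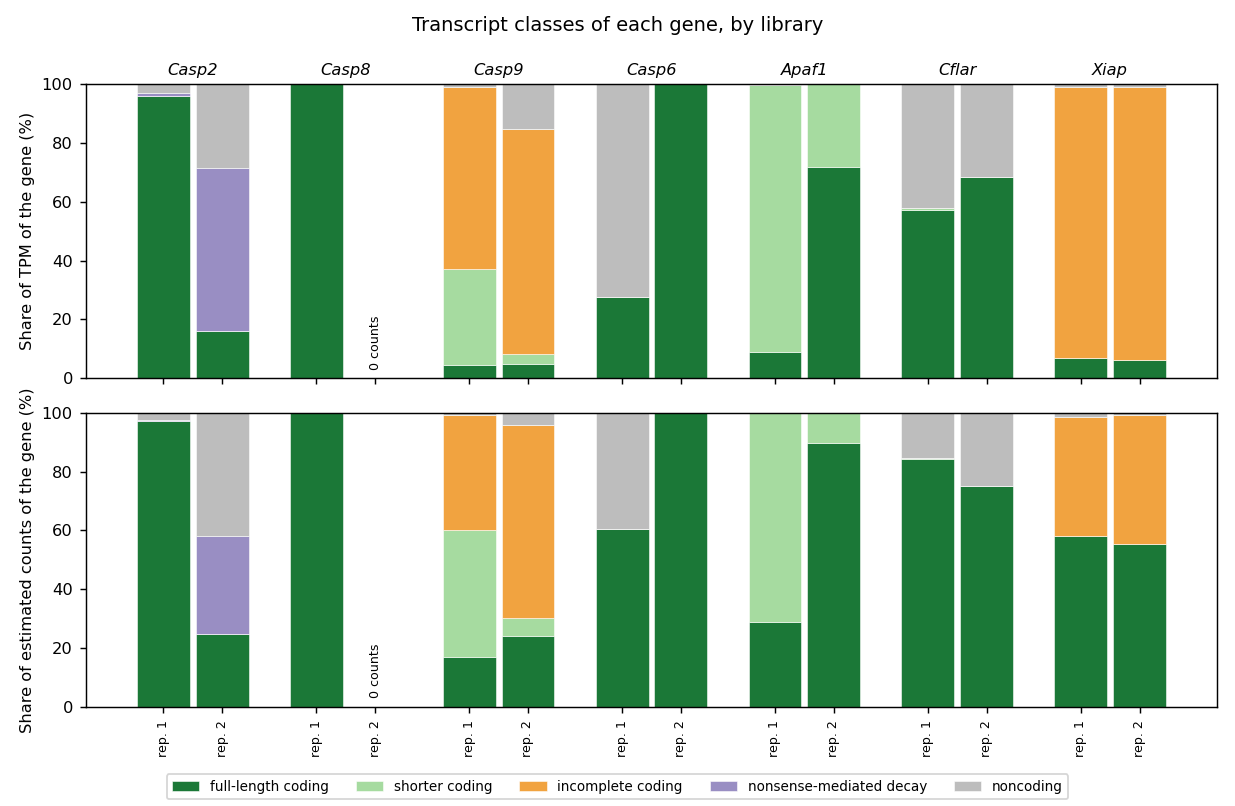
Share of each gene's TPM (top) and of its estimated counts (bottom), in percent, by transcript class in replicates 1 and 2. Full-length coding transcripts of Xiap take 6.89% and 6.35% of TPM but 58.2% and 55.3% of counts.

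Ratios within a library set the initiators beside their platform and inhibitors, as log2 of TPM with 0.1 added. The ratio of Casp9 to Apaf1 was -0.75 in replicate 1 and -0.12 in replicate 2 (mean -0.44 ± 0.45, SD, n = 2), a mean no larger than its spread. In replicate 2 the 95% counting interval of the TPM ratio, 0.801 to 1.06, includes equal levels. Casp9 to Xiap was -0.79 and -1.02 (mean -0.91 ± 0.17), and Casp8 to Cflar -4.82 and -5.66 (mean -5.24 ± 0.60). Without the added 0.1, Casp8 was 0.00545 of Cflar in replicate 1 (exact 95% interval 0.00112 to 0.0160), and at least 34.4-fold lower in replicate 2, taking 3 counts for its 0. The exact interval of that ratio in replicate 2 reached 0.0362. Casp9 exceeded Casp8 by 1184-fold in replicate 1 (404 to 5750). In replicate 2 it was at least 198-fold higher at 3 counts for Casp8, and the exact 95% interval, which adds the counting error of both genes, began at 160-fold.

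Casp2 and Casp6 stood differently to Casp9 in the 2 libraries. The log2 ratio of Casp6 to Casp9 was -0.68 in replicate 1 and -6.02 in replicate 2 (mean -3.35 ± 3.77), and that of Casp2 to Casp9 -2.42 and -4.18 (mean -3.30 ± 1.24). These ratios depended on which transcripts were counted. With full-length coding transcripts alone, Casp6 to Casp9 was 1.81 in replicate 1 and -1.77 in replicate 2, Casp2 to Casp9 1.84 and -2.14, and Casp9 to Apaf1 -1.62 and -3.89.

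Between the libraries, Casp2 and Casp6 differed by more than 2-fold. Estimated counts were scaled by TMM and compared with a two-sided exact binomial test, adjusted over 8884 genes with a mean of at least 1 CPM (counts scaled to library size). The test takes counting error alone and compares 2 libraries, not conditions. Casp6 had 6.70 CPM in replicate 1 and 0.415 CPM in replicate 2, a log2 ratio of 3.98 (95% counting interval 2.78 to 5.64; adjusted p = 1.5e-25, exact binomial test). Casp2 had 11.0 and 2.99 CPM, a log2 ratio of 1.88 (1.40 to 2.41; adjusted p = 9.6e-21, exact binomial test). At a mean CPM of at least 10 neither gene entered the test. Of the 6 genes tested 2 thus passed an adjusted p under 0.05 and a 2-fold difference, and of all genes 47.9% did (30.0% higher and 17.9% lower in replicate 1), so these 2 calls are near the background. Both were higher in replicate 1.

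The other genes lay within 2-fold. Apaf1 had 59.0 CPM in replicate 1 and 115 CPM in replicate 2, a log2 ratio of -0.96 (-1.05 to -0.87; adjusted p = 2.7e-92, exact binomial test). With DESeq2 size factors it was -1.03 and past 2-fold. Its TPM pointed the other way, and the mean length of the transcripts assigned was 2088 bases in replicate 1 and 4144 bases in replicate 2. Xiap had 23.9 and 40.4 CPM (log2 ratio -0.76, adjusted p = 2.6e-22, exact binomial test), and Cflar 8.24 and 12.9 CPM (-0.64, adjusted p = 3.3e-06, exact binomial test). Scaled by total counts, Cflar stood at -0.24 (adjusted p = 0.076, exact binomial test). Casp9 had 18.3 and 20.2 CPM, and its log2 ratio of -0.14 (-0.34 to 0.06, adjusted p = 0.18, exact binomial test) did not pass. With DESeq2 size factors it was -0.21 (adjusted p = 0.047, exact binomial test). Scaled by total counts it was 0.25 (adjusted p = 0.012, exact binomial test), so the direction rested on the scaling. The median of the 6 was -0.39, beside 0.20 over all genes tested, whose central 90% ran from -1.98 to 3.10. Casp8, with 3 and 0 counts, was under the minimum and not tested. Of all calls, 62.6% were higher in replicate 1 with TMM and 79.1% with total counts, which shifted the median of all genes by 0.40 on the log2 scale.

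**Figure D4:**
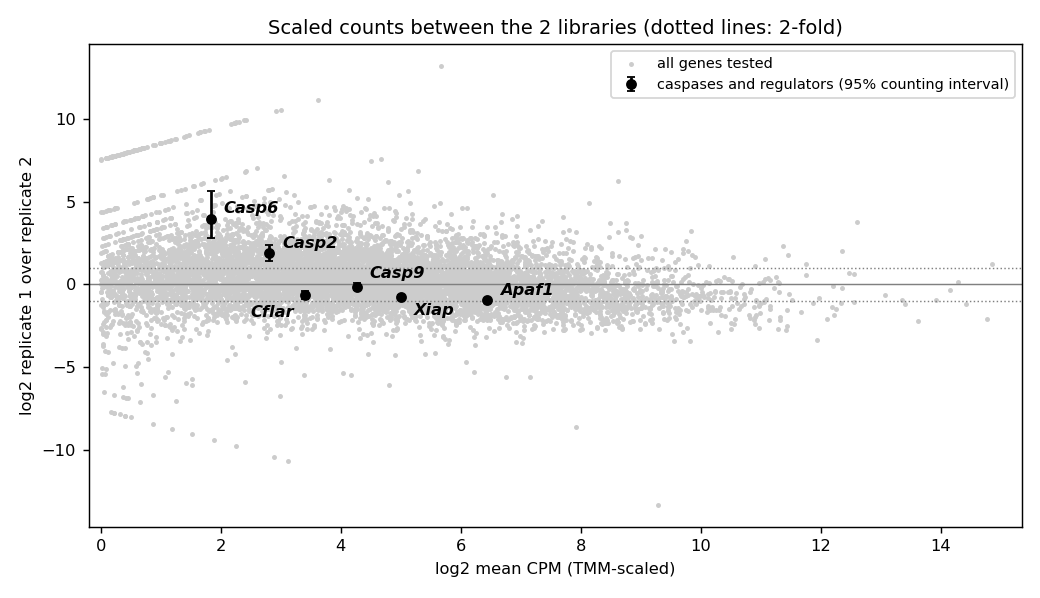
Log2 of replicate 1 over replicate 2 against log2 of the mean TMM-scaled CPM for the 8884 genes tested (grey) and the 6 caspase and regulator genes tested (black, with 95% counting intervals). Casp6 (3.98) and Casp2 (1.88) lie above the dotted 2-fold line, and the other 4 between -0.96 and -0.14.

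Around these genes, 38 other genes of the pathway were described in 6 lists. At least 1 TPM in both libraries was reached by 21 of the 38, beside 17.2% of all gene entries. Their median was 14.7 TPM, beside 18.6 TPM over all genes that passed. Of the 25 tested 13 differed between the libraries by the rule above (7 higher and 6 lower in replicate 1), beside 47.9% of all genes. The inflammatory caspase genes Casp1, Casp4 and Casp12 and the skin caspase gene Casp14 had 0 counts in both libraries.

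Of 7 inhibitors of apoptosis and their antagonists 5 passed 1 TPM. Of the 5 tested 1 was called higher (Birc5) and 1 lower (Birc6) in replicate 1, beside 30.0% and 17.9% of all genes tested. Birc5 (survivin), which also acts in cell division, averaged 125 ± 83.5 TPM and Htra2, a mitochondrial protease that binds Xiap, 67.8 ± 33.1 TPM, while the Xiap-binding gene Xaf1 had 2 and 0 counts. Diablo, the mitochondrial antagonist of Xiap, had 4.79 TPM in replicate 1, against 3.31 TPM in replicate 2. Of 5 genes listed around the apoptosome, 3 passed 1 TPM. Of the 5 tested 3 were called, all higher in replicate 1 (Apip, Aifm1 and Cycs). Of all genes tested 47.9% were called and 30.0% were called higher. The nuclease gene Endog averaged 14.7 ± 2.80 TPM and was not called, with 12.7 TPM in replicate 1 and 16.7 TPM in replicate 2. Cycs, which encodes cytochrome c, had the lowest mean of the list, 1.76 ± 0.905 TPM. Apip, an inhibitor of the Apaf1 route, had 18.0 TPM in replicate 1, against 0.79 TPM in replicate 2.

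Of 12 genes of the death receptor complex 3 passed 1 TPM. Of the 5 tested 1 was called higher and 2 lower in replicate 1, beside 30.0% and 17.9% of all genes tested. The adaptor gene Tradd averaged 25.6 ± 4.94 TPM, the kinase gene Ripk1 8.07 ± 5.20 TPM and Fadd, the adaptor that binds caspase-8, 4.08 ± 1.87 TPM. Fas, Ripk3 and Tnfsf10 had 0 counts in both libraries, Fasl and Tnfrsf1a 1 and 0 counts, and the TRAIL receptor gene Tnfrsf10b 0.37 and 0.32 TPM. Around caspase-2, the PIDDosome scaffold gene Pidd1 averaged 20.7 ± 2.25 TPM, the PIDDosome adaptor gene Cradd 13.2 ± 8.02 TPM and Mdm2, a caspase-2 substrate, 29.4 ± 9.72 TPM. All 3 passed 1 TPM, and of the 3 tested 1, Cradd, was called, lower in replicate 1, beside 47.9% of all genes called in either direction. All 7 caspase substrates passed 1 TPM. Of the 7 tested 2 were called higher and 2 lower in replicate 1, beside the same 30.0% and 17.9% of all genes. The list was led by the lamin gene Lmna, a target of caspase-6, with 2186 ± 927 TPM, and Acin1 with 296 ± 219 TPM. The lowest was Dffa, the inhibitor of the apoptotic nuclease, with 6.05 ± 2.83 TPM.

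**Figure D5:**
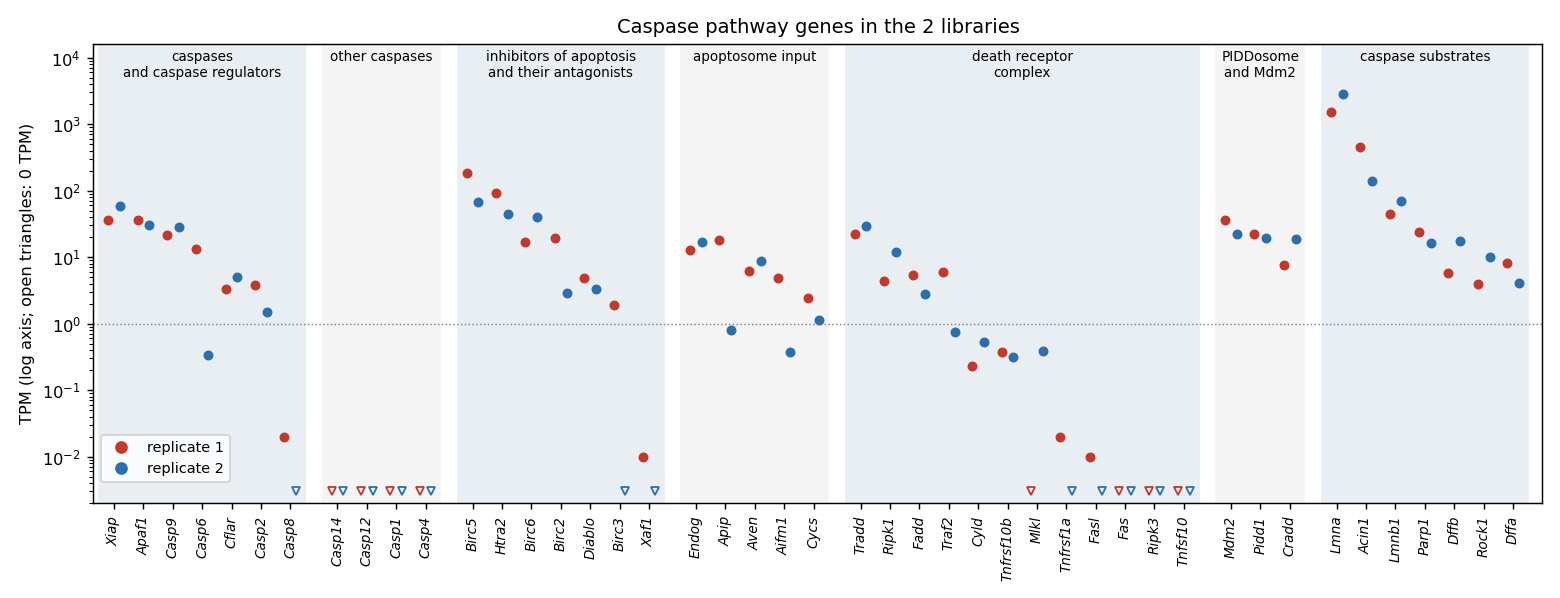
TPM in replicates 1 and 2 on a log axis for the 7 genes and the 38 other genes of the pathway, by list, with open triangles for 0 TPM. The 4 other caspase genes shown lie at 0 TPM in both libraries, while Pidd1, Cradd and Mdm2 lie at 7.49 TPM or above.

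Among those 38 genes, the one nearest to each of the 7 was found by the distance of log2 TPM with 0.1 added over the 2 libraries, a measure that rests on 2 values a gene. Tradd lay nearest to Casp9 (distance 0.07), Lmnb1 to Xiap (0.39), Mdm2 to Apaf1 (0.46), Cycs to Casp2 (0.76), Diablo to Cflar (0.78) and Apip to Casp6 (1.11). Tnfrsf1a had the same TPM as Casp8 in both libraries, 0.020 and 0, with both genes at or under 3 counts. Apip and Casp6 were alike in that both had over 10 TPM in replicate 1 and under 1 TPM in replicate 2.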

How the data were processed

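Polyadenylated RNA was sequenced from both ends in 2 libraries of 1 group. Per the labels and the text deposited beside the tables, the values were made on mm10 with GENCODE M4; for the aligner, quantification tool, read filters and use of strand, nothing is given in the sources used here. In the deposited tables the authors gave estimated counts (maximum likelihood and posterior mean), TPM and FPKM per effective length, the percent of the gene's TPM for each transcript, and interval bounds. Where no strand is used, reads of overlapping genes on opposite strands cannot be told apart. The 7 genes, the lists and the tests were chosen with earlier results of these data known.

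Entries that are not genes (26345, holding 3 counts in replicate 1 and 0 in replicate 2) were left out. Names, transcript models and sequences came from GENCODE M21 on the same assembly, by identifier without version; 51 of the 52 transcripts had the same length there (Xiap-208 did not). A gene passed with at least 1 TPM in both libraries. Log2 ratios within a library used a pseudocount of 0.1 TPM. For the comparison of libraries, rounded counts were scaled with the TMM method of edgeR 4.0.16, which gave factors of 1.15 for replicate 1 and 0.871 for replicate 2. All genes whose mean reached 1 CPM entered a two-sided exact binomial test with Benjamini-Hochberg adjustment. A gene was called when the adjusted p was below 0.05 and the fold 2 or more; log2 ratios carry a prior count of 0.5. Intervals are 95% Wilson or exact, a count of 0 is given 3 counts, and both cover counting error only. In simulated counts for this test, with counting error alone, all 100 genes changed 3-fold, all 100 changed 8-fold and 0 of 8794 unchanged genes were called among 8994 tested. The changed genes were drawn from those at 2 CPM or more over both libraries and were raised in replicate 1 alone. Weaker genes, genes lower in replicate 1 and spread beyond counting error were thus not tried.

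Named were the 7 genes, their transcripts with at least 5% of TPM in a library, the 2 highest and the lowest of each list (all genes of lists of 3), the nearest gene to each of the 7 and Gata1; some genes of the lists are not reported here and entered no count of a list. Other genes and transcripts named were chosen after their values were seen. Alternatives were other minimum levels, FPKM, posterior means, TPM without globin and mitochondrial genes, a pseudocount of 1, coding transcripts alone, DESeq2 1.42.0 size factors, total counts, other filters and folds, and each library alone. Python 3.11.15, numpy 2.4.6, pandas 2.3.3, scipy 1.17.1, matplotlib 3.10.9 and R 4.3.3 were used.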

Additional observations from a re-analysis of the deposited data

How the results depend on the processing

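No paired analysis was possible because both libraries belong to 1 group. With full-length coding transcripts alone, an alternative chosen after seeing the data, the log2 ratio of Casp6 to Casp9 was 0.020, on the other side of 0, Casp2 to Casp9 -0.15, Casp9 to Apaf1 -2.76, Casp9 to Xiap -1.31, Casp8 to Cflar -4.58 and Casp9 to Casp8 3.53, and 3 genes reached 1 TPM. With all protein-coding transcripts Casp8 to Cflar was -4.59. A pseudocount of 1 TPM gave -2.32 for Casp8 to Cflar and 4.66 for Casp9 to Casp8, and posterior means gave -4.56 and 6.86. A minimum of 5 TPM left 3 genes. Without globin and mitochondrial genes the mean of Apaf1 was 40.2 TPM, beside 33.3 TPM with them. Posterior means put the protein-coding share of Cflar at 49.3%, beside 63.2%. At a mean CPM of at least 10, 0 of the 4 genes tested were called, beside 44.0% of all genes tested. At a fold of 1.5, 5 of 6 were, beside 66.9% of all genes tested. Ranked by estimated counts, also chosen after seeing the data, 0 of 5 genes shared a leading transcript between the libraries, beside 66.7% of all genes compared. Scaled by total counts, Casp9 had a log2 ratio of 0.25, on the other side of 0 (adjusted p = 0.012, exact binomial test). With DESeq2 size factors it was -0.21 (adjusted p = 0.047, exact binomial test). Cflar scaled by total counts stood at -0.24, where its adjusted p of 0.076 by the exact binomial test no longer passed. With DESeq2 size factors Apaf1 passed 2-fold at -1.03. For these the cause was not tested, except that fewer genes enter under a higher minimum. Replicate 2 limits the shares: those of Casp2 rest on 36 counts and those of Casp6 on 5, and a count of 0 for Casp8 allows 0.144 TPM there at 3 counts, below the deposited upper bound of 0.374 TPM.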
